A study of Mus musculus with 8 samples.

Results

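The ETS transcription factors examined here are Elf1, Elf2, Elf4, Ets1, Ets2, Spi1, Fli1, Erg, Elk3 and Etv6, which are 10 of the 18645 genes listed for activated hepatic stellate cells (AHSC) and 10 of the 17408 genes listed for bone marrow-derived macrophages (BMDM). They were taken by gene symbol. The family was chosen by the FPKM values of Elf2, which are lower with auranofin in the stellate culture and not in macrophages, so the values of Elf2 itself are a description and carry no test. The other 9 genes were tested.

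Auranofin is a gold compound used against rheumatoid arthritis, and RNA of both cell types was sequenced with and without it. AHSC came from the liver of C57BL/6 mice. By the study's text the control cells were given vehicle. The treated cells received auranofin at 0.03 µM, and the exposure lasted 12 h by the same text. HSCs are the collagen-producing cells of the fibrotic liver and become activated when cultured with serum on plastic. BMDM from C57BL/6 mice, aged 8 weeks by the methods, are marrow cells differentiated with M-CSF for 7 days. All 4 BMDM libraries received 100 ng/mL LPS and 1 mM ATP, a bacterial component and a danger signal that together start the NLRP3 inflammasome. A pair of these libraries also received auranofin, 0.1 µM by the sample labels and 0.3 µM by a legend of the study, for 1 h. Each group had 2 libraries, and neither the labels nor the methods say whether they came from separate cultures or animals, so the p-values measure only the spread between these libraries.

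ETS factors share a winged helix-turn-helix domain that binds DNA with the core letters GGAA. Because nearly all members read the same core, they can compete for sites, and which member is present differs between lineages. PU.1, the product of Spi1, directs macrophage and B cell development. ERG and FLI1 maintain the endothelial lineage, ETS1 and ETS2 act downstream of MAP kinases, and ELF1, ELF2 and ELF4 form a branch of their own in which ELF2 is broadly expressed and has activating and repressing isoforms.

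Elf2 lies on chromosome 3 of mm10, on the minus strand, at chr3:51252720-51340683. The start-site windows of its promoters are shown because they carry the binding core of the family itself. Both are from RefSeq, build GRCm38.p6, minus strand, 250 bases before to 50 after a start site, and their start sites are 63130 bases apart. The upstream window is chr3:51340595-51340894 and the downstream window is chr3:51277465-51277764. Capitals mark each GGAA, or TTCC where the core lies on the other strand.
Elf2 upstream: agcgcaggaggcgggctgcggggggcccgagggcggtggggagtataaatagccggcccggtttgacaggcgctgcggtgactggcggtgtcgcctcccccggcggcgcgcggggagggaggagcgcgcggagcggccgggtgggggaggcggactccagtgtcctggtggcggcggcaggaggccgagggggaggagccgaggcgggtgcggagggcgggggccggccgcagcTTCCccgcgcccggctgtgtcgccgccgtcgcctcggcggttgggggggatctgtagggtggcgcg
Elf2 downstream: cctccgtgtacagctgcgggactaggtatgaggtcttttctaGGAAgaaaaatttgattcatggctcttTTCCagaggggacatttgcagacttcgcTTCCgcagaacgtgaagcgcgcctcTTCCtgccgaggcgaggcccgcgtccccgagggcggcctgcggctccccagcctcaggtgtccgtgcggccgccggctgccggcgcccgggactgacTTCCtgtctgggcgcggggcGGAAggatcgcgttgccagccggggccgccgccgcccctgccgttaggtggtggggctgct
The upstream window held 1 core and the downstream window 6. The longer form CGGAAG, which contains the core and reads CTTCCG from the other strand, occurred 2 times in the downstream window and in no other of the 12 windows found for 7 members (Elf1, Elf2, Elf4, Ets2, Erg, Elk3 and Etv6). Among all 32851 RefSeq windows of this length, 96.0% held GGAA on either strand and 16.9% held CGGAAG, so the core alone sets no window apart. TGACNNNGC, the core of the antioxidant response element, was in 12.4% of all windows, in neither Elf2 window and in 1 of the 12 member windows, at Elf1. The GC content was 78.7% in the upstream and 67.0% in the downstream window of Elf2, against a median of 52.7% over all windows.

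Levels are FPKM as deposited, that is, fragments scaled to transcript length and library size, so the levels of different genes may be set side by side within a table. Differences are log2(FPKM + 1) of auranofin minus control, a scale that understates the change of low genes. A gene was called changed where limma gave a p under 0.05 after Benjamini-Hochberg adjustment over every gene of that table that averaged 1 FPKM or more. The tables give no counts, but steps of 1 fragment among low values gave estimated depths of 29800000 to 39400000 fragments per AHSC library and 27500000 to 34900000 per BMDM library. For a transcript of 1 kb, 1 FPKM is then worth 27.5 fragments or more. In BMDM, auranofin replicate 1 stood apart: 9.56% to 9.99% of the 4245 genes averaging 10 FPKM or more differed 2-fold or more between it and each other library, against 0.283% to 0.377% among the other 3. Auranofin replicate 2 differed 2-fold from the controls in 0.377% and 0.283% of these genes, and the controls from each other in 0.353%. Which auranofin library better shows the response to the drug cannot be told from 2 libraries. The values of auranofin replicate 1 are therefore given separately for the members.

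The cultures were checked against marker lists. In AHSC the 12 stellate markers were all measured and summed to 4633 and 4753 FPKM in controls and to 4085 and 4151 FPKM with auranofin, 87.7% of control and lower in both treated libraries. Acta2, the smooth muscle actin of activated HSCs, was at 956 and 965 FPKM in controls and 743 and 737 FPKM with auranofin. It fell by 0.38 on the log2 scale (adjusted p = 0.00719, limma with Benjamini-Hochberg adjustment), the only stellate marker called. Whether stellate content bore on the Elf2 level was not tested. The same libraries held macrophage markers, 14 of 15 of them averaging 1 FPKM or more and summing to 10419 to 10659 FPKM, and endothelial markers, 12 of 12 and summing to 339 to 372 FPKM. Hepatocyte markers were near 0, with 7 of 8 under 1 FPKM or not listed. Neutrophil markers summed to 6.24 to 17.6 FPKM in 3 of the libraries and to 74.3 FPKM in auranofin replicate 2. The levels below are thus those of a mixed culture, in which fewer cells of a type and less RNA per cell cannot be told apart. In BMDM the macrophage markers, with Clec4f, Timd4 and Vsig4 under 1 FPKM or not listed, summed to 9358 to 10158 FPKM, the endothelial list to 16.8 to 19.4 FPKM and the stellate list to 10.4 to 16.5 FPKM.

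**Figure D1:**
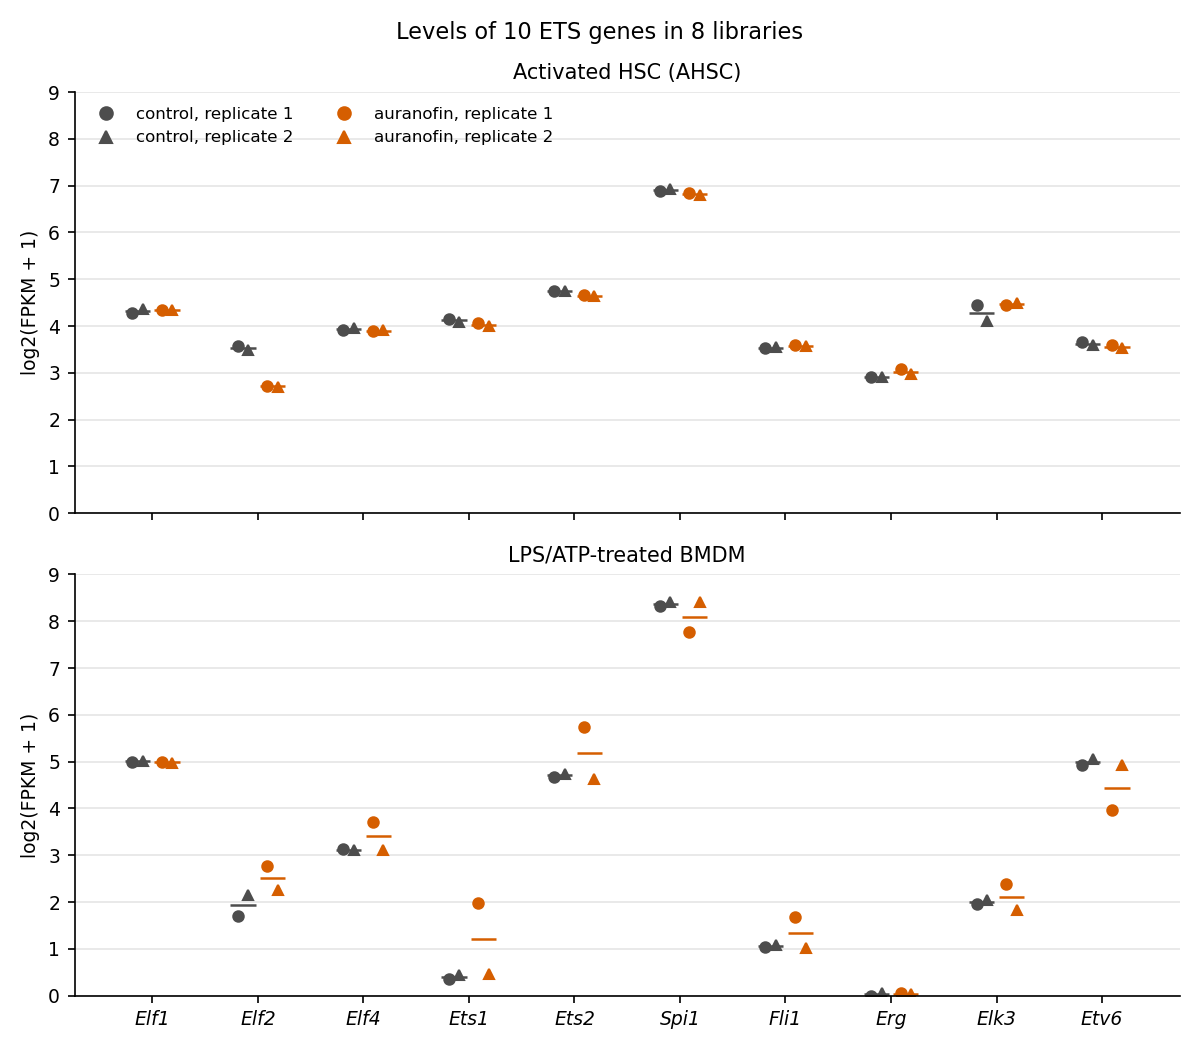
Levels of the 10 ETS genes in the 4 AHSC libraries (upper panel) and the 4 BMDM libraries (lower panel), as log2(FPKM + 1) on the vertical axis. Circles are replicate 1, triangles replicate 2, grey control, orange auranofin, and short lines group means on this scale. In AHSC the auranofin points of Elf2, at 5.58 and 5.49 FPKM, lie well below its control points at 10.9 and 10.2 FPKM, while Spi1 is the highest gene in every library.

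In AHSC the 10 genes spanned from 6.49 FPKM for Erg to 119 FPKM for Spi1 in the control mean. Spi1 led, followed by Ets2, Elf1, Elk3, Ets1, Elf4, Etv6, Fli1, Elf2 and Erg. Neighbours in this order whose control libraries overlapped were Elf1 and Elk3, Elk3 and Ets1, and Fli1 and Elf2. With auranofin, Elf2 was the lowest of the 10, below Erg, and the ranges of these neighbours did not overlap. Spi1 alone made up 46.5% to 48.1% of the summed FPKM of the 10 genes in every AHSC library.

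Elf2 was at 10.9 and 10.2 FPKM in the control AHSC libraries and at 5.58 and 5.49 FPKM with auranofin. Both auranofin libraries lay below both controls, and they differed from each other by a ratio of 1.02. The control mean was 10.5 ± 0.495 FPKM (SD, n = 2) and the auranofin mean 5.54 ± 0.0658 FPKM (SD, n = 2), which left 52.6% of the control level. On the log2(FPKM + 1) scale the difference was -0.82, the 18th lowest of 12149 genes, and with a smaller pseudocount of 0.1 it was -0.92. These values are what singled the gene out. Depending on which of its 4 transcripts carried the reads, of 2514 to 5919 bases, each value stood for between 419 and 2026 fragments, and the gene-level table does not separate the isoforms.

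ELF1 and ELF4, the closest relatives of ELF2 here, varied little between the same libraries. ELF1 is an activator in lymphoid and myeloid cells. Elf1 was at 18.5 and 19.6 FPKM in controls and 19.4 and 19.3 FPKM with auranofin. The groups overlapped, and the log2 difference was 0.02 with a 95% interval of -0.09 to 0.13 (adjusted p = 0.871, limma with Benjamini-Hochberg adjustment). ELF4, also called MEF, is known for its part in interferon induction and lymphocyte quiescence. Elf4 was at 14.1 and 14.6 FPKM in controls and 13.8 and 13.99 FPKM with auranofin. The auranofin libraries were both lower, by -0.04 on the log2 scale (interval -0.15 to 0.06, adjusted p = 0.656, limma with Benjamini-Hochberg adjustment).

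As a share of the summed FPKM of Elf1, Elf2 and Elf4, Elf2 was 25.0% and 22.9% in the AHSC controls and 14.4% and 14.2% with auranofin. The sum itself was 43.5 and 44.4 FPKM in controls and 38.7 and 38.8 FPKM with auranofin. Elf1 took 42.6% and 44.2% of that sum in controls and 50.03% and 49.7% with auranofin, without a change in its own level beyond the interval above.

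**Figure D2:**
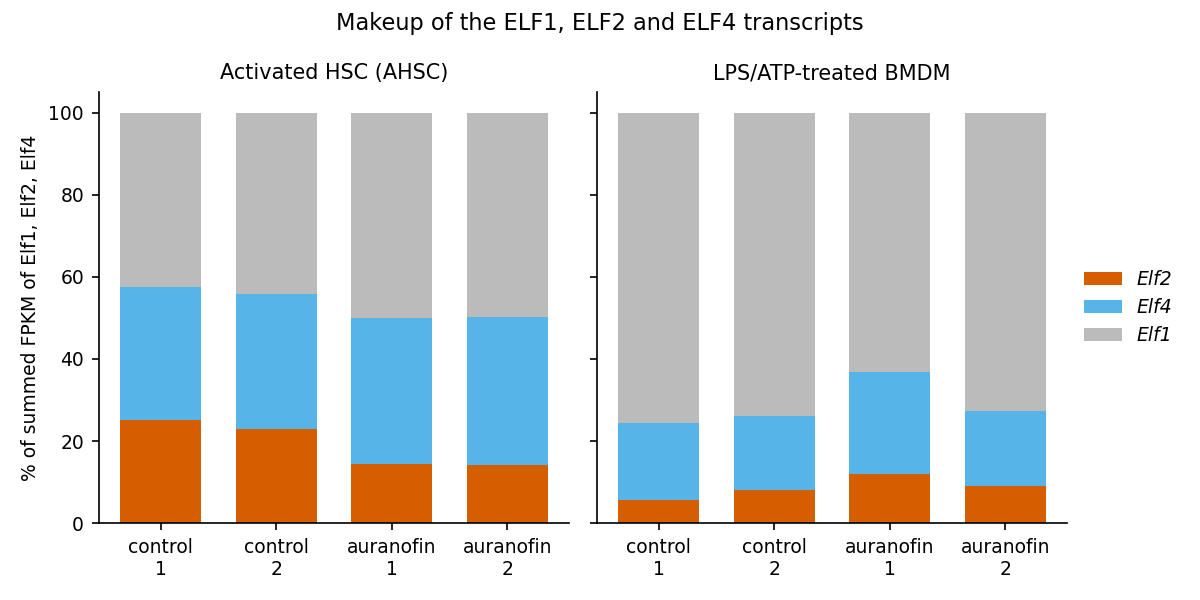
Percent of the summed FPKM of Elf1, Elf2 and Elf4 that each gene contributes, in each AHSC library (left) and each BMDM library (right); bars stack to 100%. The Elf2 segment is 25.0% and 22.9% in AHSC controls against 14.4% and 14.2% with auranofin, and 5.53% and 8.09% in BMDM controls against 11.97% and 8.96% with auranofin.

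None of the other 9 members was called changed in AHSC, where 2.33% of the 12149 genes tested were called (283 genes, of which 151, or 1.24%, were higher and 132, or 1.09%, lower). At an unadjusted p under 0.05, limma gave 2 of the 9, Ets2 and Spi1, against 17.8% of all genes, and at 1.5-fold with the same p it gave 0, against 0.576% of all genes. The groups did not overlap in 8 of the 9, all but Elf1, where 50.1% of all genes tested showed this. Of these 8, Elf4, Ets1, Ets2, Spi1 and Etv6 were lower with auranofin, where 23.9% of all genes were, and Fli1, Erg and Elk3 were higher, where 26.2% were. The 9 differences ran from -0.11 to 0.21 with a median of -0.04, beside a median of 0.00 over all genes tested.

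ETS1 and ETS2, which are phosphorylated by MAP kinases and drive protease and matrix genes, were both slightly lower in the treated AHSC. Ets2 was at 26.0 and 25.8 FPKM in controls and 24.2 and 23.8 FPKM with auranofin. The 4 values formed separate groups, with a log2 difference of -0.11 (SE 0.04, unadjusted p = 0.0307, adjusted p = 0.226, limma with Benjamini-Hochberg adjustment). Ets1 was at 16.7 and 16.1 FPKM in controls and 15.7 and 15.0 FPKM with auranofin. Its groups were also apart, with a log2 difference of -0.09 and an interval of -0.21 to 0.02.

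Spi1, the master regulator of the myeloid lineage, was at 118 and 121 FPKM in the AHSC controls and 114 and 111 FPKM with auranofin. Both treated libraries were lower, by -0.09 on the log2 scale (SE 0.03, unadjusted p = 0.0463, adjusted p = 0.272, limma with Benjamini-Hochberg adjustment). The summed macrophage markers were at 98.8% of their control level in these libraries. Much of that sum was Lyz2, at 5519 of 10504 FPKM in control replicate 1, and Lyz2 was at 97.7% of control. The median log2 difference of the tested macrophage markers was -0.04. Of the 14 markers tested, Clec4f, a Kupffer cell lectin, rose by 0.27 and Mrc1, the mannose receptor, fell by 0.28 on the log2 scale (adjusted p = 0.0395 for each, limma with Benjamini-Hochberg adjustment), and the others did not pass. Without auranofin replicate 1 these were 0.129 for Clec4f and 0.124 for Mrc1. What part these cells had in the Spi1 level was not tested.

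ERG and FLI1 keep endothelial genes on, and both were present in AHSC. Fli1 was at 10.5 and 10.7 FPKM in controls and 11.1 and 10.9 FPKM with auranofin. Erg was at 6.49 and 6.48 FPKM in controls and 7.50 and 6.81 FPKM with auranofin. For each gene both treated libraries were the higher ones, with log2 differences of 0.05 (interval -0.06 to 0.16) and 0.12 (interval -0.03 to 0.27), and neither passed the test. The endothelial markers summed to 102.9% of control. Of the 12 tested, Stab2 fell by 0.37 and Clec4g by 0.44 on the log2 scale (adjusted p = 0.0169 and 0.0130, limma with Benjamini-Hochberg adjustment), both of them genes of the liver sinusoid, and no other endothelial marker was called. Without auranofin replicate 1 the adjusted p of Stab2 was 0.0601 from limma with Benjamini-Hochberg adjustment. Whether endothelial content bore on the Erg and Fli1 levels was not tested. Fli1 lies 92808 bases from Ets1 on chromosome 9 and Erg lies 115806 bases from Ets2 on chromosome 16. Within these 2 neighbouring pairs Fli1 and Erg were higher and Ets1 and Ets2 lower with auranofin, with no call in any of the 4. Among all genes tested in AHSC, 26.2% lay higher and 23.9% lower without overlap.

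ELK3 and ETV6 act mostly as repressors. Elk3 was at 20.7 and 16.1 FPKM in the AHSC controls and 20.9 and 21.6 FPKM with auranofin. The treated libraries were close to each other and just above control replicate 1, and control replicate 2 was low. The log2 difference was 0.21 (interval -0.06 to 0.48, adjusted p = 0.392, limma with Benjamini-Hochberg adjustment). Without control replicate 1 it was 0.38 with an adjusted p of 0.00796, the only such call among the 9 members when an AHSC library was left out in turn, and without control replicate 2 it was 0.03 with an adjusted p of 0.871. Etv6 was at 11.6 and 11.0 FPKM in controls and 11.0 and 10.6 FPKM with auranofin, apart by a narrow margin, with a log2 difference of -0.06 and an interval of -0.18 to 0.06.

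**Figure D3:**
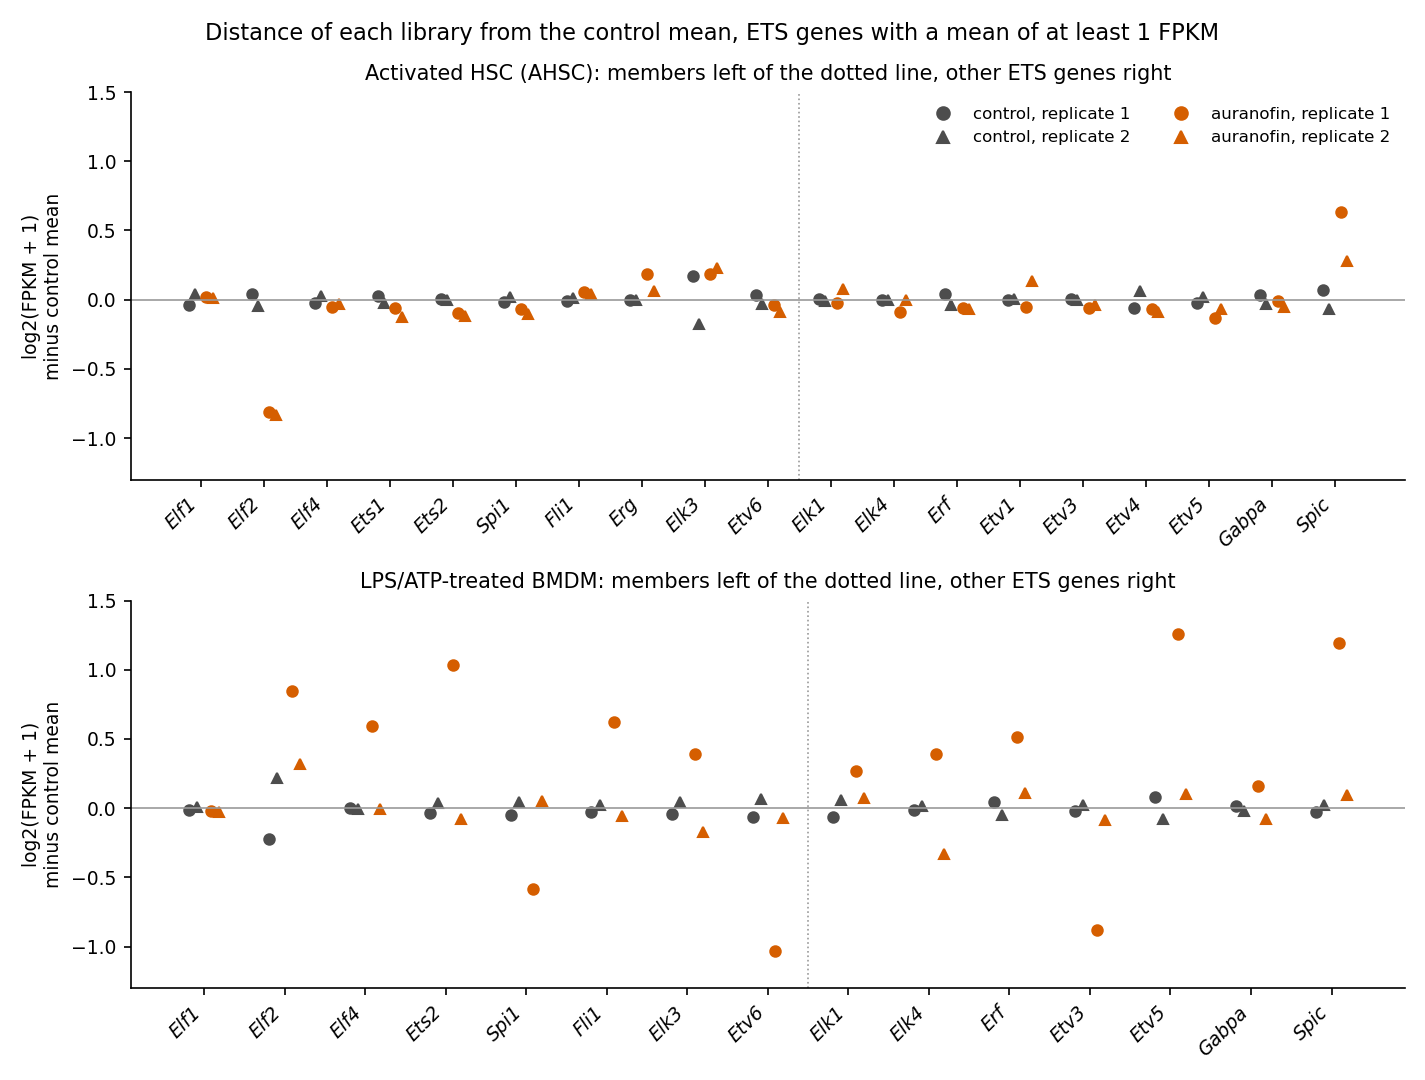
Distance of each library from its control mean, in log2(FPKM + 1), for members (left of the dotted line) and the other ETS genes averaging 1 FPKM or more (right), in AHSC (upper panel) and BMDM (lower panel). In AHSC the auranofin points of Elf2 are at -0.81 and -0.83 and those of the 9 other members lie between -0.13 and 0.23, while in BMDM auranofin replicate 1 (orange circles) spreads from -1.03 to 1.03 over the tested members other than Elf2 and replicate 2 (orange triangles) from -0.17 to 0.05.

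In BMDM the family had another makeup. The tables were normalized separately and the doses and times differ, so levels in both cell types are set side by side without a test. Spi1 had a control mean of 329 FPKM, beside 119 FPKM in AHSC, and made up 76.3% of the summed FPKM of the 10 genes in both BMDM controls. Elf1 and Etv6 came next at 31.2 and 30.9 FPKM and did not differ beyond their range, followed by Ets2 at 25.2 FPKM and Elf4 at 7.68 FPKM. Elk3 at 2.98 FPKM and Elf2 at 2.85 FPKM overlapped, Fli1 was at 1.09 FPKM and Ets1 at 0.316 FPKM. Erg was at 0 and 0.0444 FPKM, at most about 4 fragments, where the AHSC controls had 6.49 and 6.48 FPKM.

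Elf2 in BMDM was at 2.26 and 3.44 FPKM in controls and 5.83 and 3.75 FPKM with auranofin. The treated libraries were the higher ones, but control replicate 2 and auranofin replicate 2 were close. The log2 difference was 0.58 with all 4 libraries and 0.32 without auranofin replicate 1. Like the AHSC values, these belong to the choice of the family and were not tested. Elf2 made up 5.53% and 8.09% of the Elf1, Elf2 and Elf4 sum in controls and 11.97% and 8.96% with auranofin.

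Of the other 9 members, 7 passed the mean of 1 FPKM in BMDM, all but Ets1 and Erg, and limma called 0 of these 7, where 0.0108% of the 9232 genes tested were called. At an unadjusted p under 0.05 the count was also 0, against 0.531% of all genes, and at 1.5-fold with that p it was 0, against 0.152%. The groups did not overlap for 2 of the 7, Elf1 and Etv6, both lower with auranofin, where 38.8% of all genes did not overlap, 12.6% lying lower and 26.3% higher. The 7 differences ran from -0.55 to 0.48 with a median of 0.11, beside 0.09 over all genes, and the adjusted p-values from limma with Benjamini-Hochberg adjustment ran from 0.721 to 0.912.

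The spread came from auranofin replicate 1. Etv6 was at 29.4 and 32.4 FPKM in the BMDM controls, 14.6 FPKM in auranofin replicate 1 and 29.4 FPKM in replicate 2. Ets2 was at 24.5 and 25.8 FPKM in controls, 52.5 FPKM in auranofin replicate 1 and 23.8 FPKM in replicate 2. Spi1 was at 318 and 339 FPKM in controls, 219 FPKM in auranofin replicate 1 and 341 FPKM in replicate 2. In each of these genes replicate 1 alone was far from the controls and replicate 2 was near or inside their range.
The same held for the less abundant members. Elf4 was at 7.72 and 7.65 FPKM in controls, 12.1 FPKM in auranofin replicate 1 and 7.65 FPKM in replicate 2. Fli1 was at 1.05 and 1.13 FPKM in controls, 2.22 FPKM in replicate 1 and 1.01 FPKM in replicate 2. Elk3 was at 2.86 and 3.11 FPKM in controls, 4.23 FPKM in replicate 1 and 2.53 FPKM in replicate 2. Ets1, under the filter, was at 0.274 and 0.358 FPKM in controls, 2.92 FPKM in replicate 1 and 0.3798 FPKM in replicate 2. Elf1 was the exception, with 31.0 and 31.4 FPKM in controls and 30.7 and 30.5 FPKM with auranofin, a log2 difference of -0.02 with an interval of -0.31 to 0.26.
Leaving out auranofin replicate 2, limma with the lone treated library assumed to vary like the controls called 6 of the 7 members, all but Elf1, but 5997 of all genes were called with them. Leaving out auranofin replicate 1, it called 0 of the 7 members and 13 genes in all, and the differences of Elf4, Ets2, Fli1, Elk3 and Spi1 changed sign, to -0.01, -0.08, -0.05, -0.17 and 0.05.

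The other ETS genes were given by a list of 17, of which 14 were in each table. In AHSC 9 of them averaged 1 FPKM or more and none was called, with 3 above and 6 below 0 and a median difference of -0.05. Spic, a macrophage factor of the PU.1 branch that is known for its role in iron-recycling macrophages, was at 11.2 and 10.1 FPKM in controls and 17.1 and 13.2 FPKM with auranofin. Both treated libraries were higher, by 0.46 on the log2 scale (SE 0.12, unadjusted p = 0.00885, adjusted p = 0.130, limma with Benjamini-Hochberg adjustment), the largest difference among the 9. The adjusted p was 0.0432 without control replicate 1 and 0.0200 without auranofin replicate 2. It was 0.145 without control replicate 2 and 0.220 without auranofin replicate 1, where the difference was 0.28. The other 8, Elk1, Elk4, Erf, Etv1, Etv3, Etv4, Etv5 and Gabpa, lay between -0.10 and 0.04.

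In BMDM 7 of the other ETS genes were tested, Elk1, Elk4, Erf, Etv3, Etv5, Gabpa and Spic, and none was called. Etv3, a repressor that is induced in activated macrophages, was at 167 and 172 FPKM in controls, 91.4 FPKM in auranofin replicate 1 and 159 FPKM in replicate 2, the most abundant of the listed ETS genes in these cells after Spi1. Spic was at 7.64 and 7.94 FPKM in controls, 19.1 FPKM in replicate 1 and 8.40 FPKM in replicate 2. Etv3 had both treated libraries below the controls, and Elk1, Erf, Etv5 and Spic had both above, with auranofin replicate 1 farthest in each. Among all genes tested in BMDM, 12.6% lay lower and 26.3% higher without overlap. Etv5 was at 2.17 and 1.83 FPKM in controls, 6.17 FPKM in replicate 1 and 2.21 FPKM in replicate 2, the last close to the controls. Without auranofin replicate 1 the log2 differences of Elk1, Elk4, Erf and Gabpa were 0.07, -0.33, 0.11 and -0.07, beside 0.17, 0.03, 0.31 and 0.04 with all libraries.

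Partners and target genes of the family were described by 6 lists, chosen with earlier results of these data known. They are to be read beside the 2.33% of all genes called in AHSC and the median difference of 0.00 over all genes. In AHSC the 18 tested partners (RUNX, GABPB, SRF, IRF, C/EBP and AP-1 proteins, corepressors and MAP kinases) had 0 calls, differences between -0.29 and 0.15 and a median of -0.04. The 12 PU.1 targets had 1 call, Mrc1, and a median of -0.05. Mrc1 was at 88.9 and 86.3 FPKM in controls and 69.5 and 74.2 FPKM with auranofin. Both treated libraries were lower, by -0.28 on the log2 scale (SE 0.04). The list shares Mrc1 and others with the macrophage markers.

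The 13 endothelial ERG and FLI1 targets had 0 calls in AHSC and a median of 0.07, with 9 of 13 above 0. The 7 tested serum response targets of the ELK factors, immediate early genes such as Egr1, had 0 calls. All 7 differences were below 0, between -0.29 and -0.04, with a median of -0.12 beside 0.00 over all genes. The median over all 12149 genes tested was 0.00487, so fewer of them lay below 0 than above, but their exact share was not counted. In this list 2 genes, Fos and Srf, are also on the partner list. The 9 ETS1 and ETS2 targets had 2 calls and a median of -0.05. Plau, the urokinase protease, was at 154 and 153 FPKM in controls and 126 and 132 FPKM with auranofin. Both treated libraries were lower, and the gene fell by 0.25 on the log2 scale (SE 0.04, adjusted p = 0.0353, limma with Benjamini-Hochberg adjustment). Hmox1, heme oxygenase and a main target of the oxidative stress factor NRF2, was at 391 and 368 FPKM in controls and 1297 and 1141 FPKM with auranofin. It rose by 1.68 on the log2 scale (SE 0.07, adjusted p = 0.00132, limma with Benjamini-Hochberg adjustment), far above its spread. The 6 tested ELF targets had 1 call and a median of 0.09. Vcp, an ATPase of protein quality control whose promoter is known to bind ELF2, was at 241 and 237 FPKM in controls and 290 and 285 FPKM with auranofin. It rose by 0.26 on the log2 scale (SE 0.03, adjusted p = 0.0199, limma with Benjamini-Hochberg adjustment), while Elf2 was lower in these libraries. In BMDM Vcp was at 103 and 105 FPKM in controls, 245 FPKM in auranofin replicate 1 and 102 FPKM in replicate 2. Elf2 was also highest in that replicate 1, at 5.83 FPKM. Whether Elf2 bore on the Vcp level was not tested. The calls of Plau and Vcp did not hold when 1 auranofin library was left out, with adjusted p-values from limma and Benjamini-Hochberg adjustment of 0.131 and 0.0906 without replicate 1 and 0.0550 and 0.0581 without replicate 2.

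In BMDM none of the tested genes of these 6 lists was called. Hmox1, called in AHSC, was at 82.7 and 86.7 FPKM in controls, 4403 FPKM in auranofin replicate 1 and 85.3 FPKM in replicate 2. Plau was at 64.8 and 58.1 FPKM in controls, 126 FPKM in replicate 1 and 60.4 FPKM in replicate 2. Mrc1 was at 56.8 and 56.3 FPKM in controls, 63.5 FPKM in replicate 1 and 49.8 FPKM in replicate 2. The list medians were 0.10 for partners, 0.00 for PU.1 targets, -0.14 for endothelial targets (4 tested), 0.13 for ETS1 and ETS2 targets, 0.05 for serum response targets and -0.17 for ELF targets, beside 0.09 for all genes. Those of auranofin replicate 2 alone stayed between -0.06 and 0.03, while replicate 1 ran from -0.33 to 0.18.

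**Figure D4:**
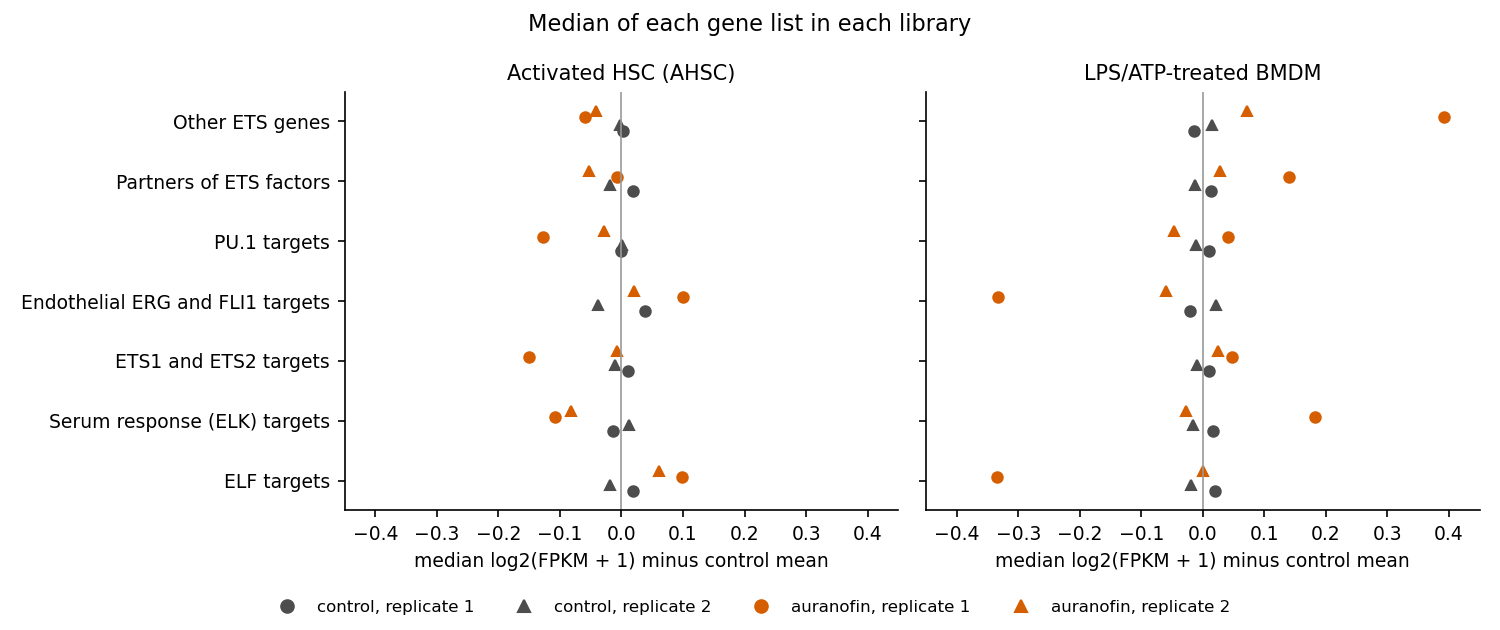
Median distance from the control mean, in log2(FPKM + 1), of the tested genes of each list in each library, AHSC left and BMDM right. In AHSC the medians of all 7 lists lie between -0.15 and 0.10, and in BMDM auranofin replicate 1 (orange circles) reaches -0.33 for the endothelial and ELF target lists and 0.39 for the other ETS genes.

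The genes on either side of Elf2 were examined to see whether the locus moved together. Noct, a circadian phosphatase gene whose end lies 1065 bases from Elf2, was at 3.41 and 3.92 FPKM in the AHSC controls and 3.58 and 3.37 FPKM with auranofin, with overlapping groups and a log2 difference of -0.06. On the other side, Mgarp was under 1 FPKM in all libraries, and Ndufc1, a subunit of respiratory complex I, was at 41.3 and 44.5 FPKM in controls and 47.6 and 48.7 FPKM with auranofin. Both treated libraries were higher for Ndufc1, by 0.16 on the log2 scale, and neither Noct nor Ndufc1 passed the test (adjusted p = 0.734 and 0.160, limma with Benjamini-Hochberg adjustment). Slc7a11, the cystine transporter xCT and the next protein-coding gene beyond Noct, lies 753632 bases from Elf2 and went the other way. It was at 2.37 and 1.77 FPKM in controls and 4.15 and 4.07 FPKM with auranofin. It rose by 0.74 on the log2 scale (SE 0.10, adjusted p = 0.0292, limma with Benjamini-Hochberg adjustment), a call lost without auranofin replicate 1 or 2 (adjusted p = 0.0819 and 0.0647, limma with Benjamini-Hochberg adjustment). In BMDM Slc7a11 was at 3.48 and 3.60 FPKM in controls, 59.0 FPKM in auranofin replicate 1 and 2.87 FPKM in replicate 2. The long noncoding RNA 4930577N17Rik, named after its values were seen, overlaps the downstream start site shown above (chr3:51276761-51278407) and was at 0.397 to 0.555 FPKM in AHSC. Reads lying wholly within the stretch it shares with Elf2 could be told apart only by strand. The counting setting is not given in the sources used here.

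By the distance of their log2 deviations from Elf2 over the 8 libraries, the 5 nearest of 8962 genes averaging 1 FPKM or more in both tables were Thbs1, Trmt61a, Swi5, Tnfsfm13 and Hmga2-ps1, at distances of 0.760 to 0.847 where the median gene was at 1.46. They were chosen for this likeness, so their values are a description. Thbs1, thrombospondin, was at 307 and 290 FPKM in the AHSC controls and 197 and 187 FPKM with auranofin, and in BMDM at 39.2 and 38.3 FPKM in controls and 51.5 and 35.5 FPKM with auranofin. Its AHSC groups were apart and its BMDM groups overlapped. Trmt61a, a tRNA methyltransferase subunit, was at 7.51 and 7.83 FPKM in the AHSC controls and 6.54 and 4.16 FPKM with auranofin. Swi5, a recombination factor, was at 136 and 129 FPKM in controls and 105 and 104 FPKM with auranofin. Tnfsfm13 is a readthrough of neighbouring genes and Hmga2-ps1 a transcribed pseudogene, so reads may be shared with near-identical copies and both values are uncertain. Elf4 ranked 624th and Elf1 5815th by the same distance, so the relatives of Elf2 were not among the genes whose pattern was most like it.

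**Figure D5:**
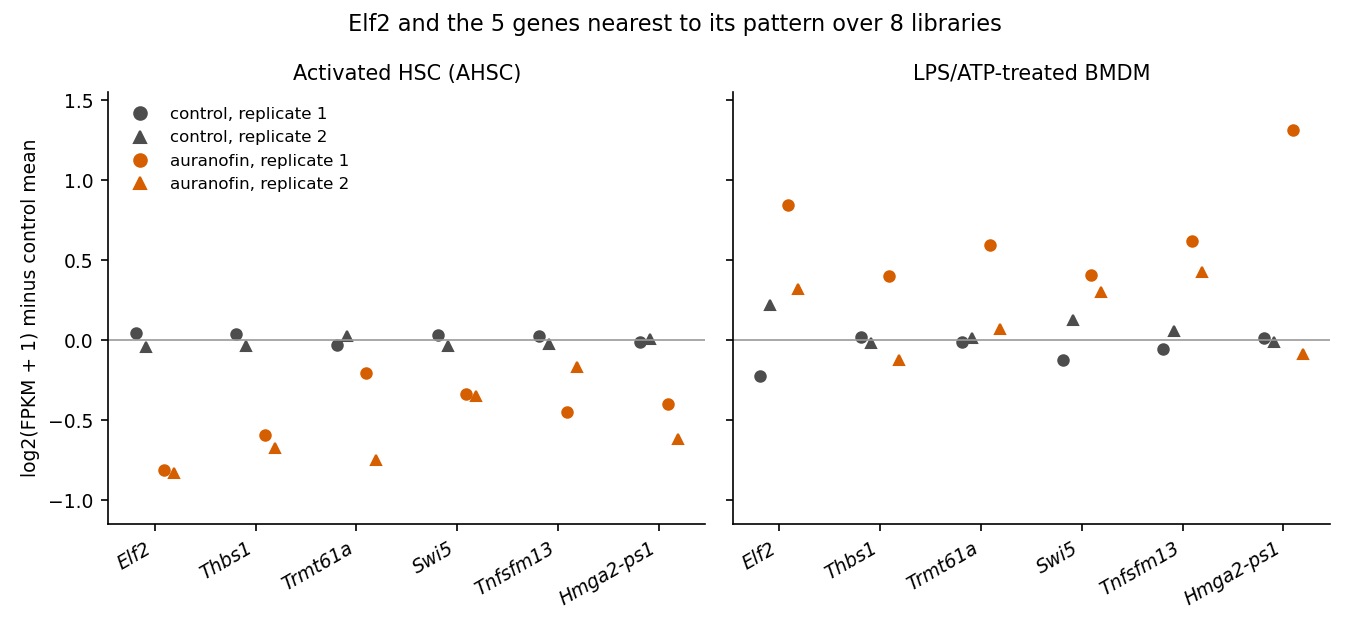
Distance from the control mean, in log2(FPKM + 1), of Elf2 and the 5 genes nearest to its pattern, in the 4 AHSC libraries (left) and the 4 BMDM libraries (right). Elf2 has the lowest auranofin points in AHSC, at -0.81 and -0.83, and all 6 genes lie below their controls there and above them in BMDM auranofin replicate 1.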

How the data were processed

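RNA was extracted with Trizol, and 1 µg was made into libraries with a stranded mRNA kit. The submitters' processing notes name CASAVA, FastQC 0.11.7, Trimmomatic 0.38, HISAT2 2.1.0, StringTie 1.3.4d and the build mm10. The authors deposited FPKM values for RefSeq genes, summed over transcripts by StringTie and scaled to length and library, in 1 table per cell type, with 2 libraries per group. The strand setting is not given in the sources used here. Each table was fitted alone with limma 3.58.1 (lmFit, eBayes with trend, R 4.3.3) on log2(FPKM + 1), for genes averaging 1 FPKM or more, and p-values were adjusted by the Benjamini-Hochberg method. No count test was used, since the tables hold no counts. With 2 libraries a group, the smallest two-sided p of an exact permutation test is 0.333. Depth was estimated from 1-fragment steps under 0.2 FPKM with GENCODE transcript lengths and covers counting error only. Coordinates and promoter windows are from RefSeq (GRCm38.p6), in which 18601 of 18645 and 17371 of 17408 gene identifiers were found. Named genes are the members, the other ETS genes that passed the filter, called genes of the partner and target lists, the neighbours of Elf2 and the 5 genes nearest to its pattern; called markers and 1 overlapping RNA were added after their values were seen. The members and lists were chosen with earlier results of these data known. Alternatives changed 1 choice at a time: a pseudocount of 0.1, no filter, a mean of at least 5 FPKM, quantile normalization, median centring, no trend, the replicate number as a block, and each library left out. Python 3.11.15, numpy 2.4.6, pandas 2.3.3 and matplotlib 3.10.9 were used.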

Additional observations from a re-analysis of the deposited data

Results flagged for a closer look

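There were 15 ETS genes averaging 1 FPKM or more in both tables. Elf2, one of the 15, was chosen by its direction in the cell types, so it adds nothing to a count. Of the others, Etv5 and Erf had both auranofin libraries below both controls in AHSC and above both controls in BMDM. Of all 8963 genes tested in both tables, 4.46% did so. The cell types also differ in dose and time, and the difference between them was not tested. For Elf2 the log2 differences were -0.819 in AHSC and 0.583 in BMDM. For Etv5, an ETS factor of the PEA3 branch that responds to growth factor signalling, they were -0.098 in AHSC and 0.681 in BMDM, where auranofin replicate 2 was at 2.21 FPKM against controls of 2.17 and 1.83 FPKM. For Erf, a repressor controlled by ERK, they were -0.065 in AHSC and 0.312 in BMDM, and neither Etv5 nor Erf passed limma's test in either cell type with all libraries. Erf in BMDM was at 1.75 and 1.58 FPKM in controls, 2.80 FPKM in auranofin replicate 1 and 1.87 FPKM in replicate 2. Without BMDM auranofin replicate 1 the differences in BMDM were 0.32 for Elf2, 0.10 for Etv5 and 0.11 for Erf.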

How the results depend on the processing

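No tested member was called in either cell type under the alternatives that kept all 4 libraries, including the threshold of 1.5-fold with an unadjusted p. With a library left out, the number of members called ran from 0 to 1 in AHSC and from 0 to 6 in BMDM, and that of the genes on the other lists from 1 to 6 in AHSC, beside 4 with all libraries, and from 0 to 43 in BMDM. On those lists 1 gene, Hmox1, was called in AHSC both with no filter and without the variance trend. Over all genes of AHSC the calls numbered 49 with no filter and 129 without trend, and 177 to 493 with a library left out, against 283, and in BMDM 0 with no filter or quantile normalization, 2 without trend and 1 to 5997 with a library left out, against 1. The labels do not say whether same-numbered replicates share more than a number. The correlations of their deviations were 0.109 in AHSC and -0.0551 in BMDM, which with 2 libraries a group cannot settle this. With the replicate block, 0 members were called in AHSC and 0 in BMDM, and 3 and 0 genes of the other lists. The difference of Elf2 ran from -0.92 to -0.77 in AHSC and from 0.32 to 0.84 in BMDM over the alternatives. Slc7a11 did not pass with no filter, without trend or without either AHSC auranofin library (adjusted p = 0.0582 to 0.127, limma with Benjamini-Hochberg adjustment), nor did Vcp and Plau. Mrc1 did not pass with no filter, quantile normalization, no trend or the block, nor without AHSC auranofin replicate 1, and Clec4f likewise except for quantile normalization. Acta2, Clec4g and Stab2 did not pass with no filter. Depth limits Erg in BMDM, at most about 4 fragments a library, and 2 libraries a group limit every test.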
